A study of Homo sapiens with 24 samples.

Results

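A set of 34 lysosome and autophagy genes was followed in SK-MES-1, an established human cell line of squamous cell carcinoma of the lung (LUSC), upon stimulation with TGFβ1. The members were chosen by name: 2 transcription factors, 5 proteins of the lysosomal membrane and of lipid export, 9 cathepsins, 7 lysosomal glycosidases and their activator, 3 subunits of the proton pump and 8 autophagy genes. One of them, GUSB, also served the study as a qRT-PCR reference gene. All 34 were among the 34834 genes in the tables and among the 17454 genes with enough counts to be tested. The untreated arm received no TGFβ1 (0 ng/ml) and the TGFβ arm received 2 ng/ml, and RNA was taken at 0, 8, 24 and 48 h with 3 replicates each, which the study describes as biological, which makes 8 groups and 24 RNA-Seq libraries. All groups shared a serum starvation of 3 h before the start and growth factor-depleted medium afterwards, so that the untreated arm was itself a time course of cells without serum. The model is a single cell line, and bulk RNA cannot tell fewer expressing cells apart from less RNA per cell.

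Lysosomes break down proteins, sugars and lipids with hydrolases that work at low pH, which the vacuolar H+-ATPase (V-ATPase) maintains by pumping protons. Autophagy delivers cytoplasm to them: the ULK1 kinase complex starts an autophagosome, lipids and ubiquitin-like proteins of the LC3 and GABARAP families build it, and it then fuses with the lysosome. TFEB and TFE3 are related basic helix-loop-helix leucine zipper factors that are held in the cytoplasm by mTORC1 in fed cells, enter the nucleus on starvation, and bind a palindrome called the CLEAR motif in the promoters of many lysosomal genes. TGFβ acts through SMAD proteins, which bind a short DNA box.

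The sequences that connect the set are these binding letters. RefSeq promoters (GRCh38.p14, from 250 bases before to 50 bases after a start) were matched for 26 of the 34 members, with 32 start sites. LAMP2, CTSB, CTSK, CTSS, HEXA, PSAP, ATP6V1A and ATP6V1H were not matched. The core CACGTG, which reads the same on both strands, stood in the promoters of 7 members (ATP6V0D1, CTSA, CTSD, GAA, LAMP1, MCOLN1 and NEU1), against 7.26% of all 35116 promoters. The longer palindrome TCACGTGA, which contains the core, was present in 5 of them, against 0.98% of all promoters, and the full CLEAR palindrome, which adds 1 base on either side, in GAA and MCOLN1, against 0.353%. The following 30-base windows show each copy of TCACGTGA with the CACGTG core in capitals, since these are the sites by which the set is usually tied to TFEB and TFE3. A match is a description of letters, and binding was not measured.
ATP6V0D1 (chr16:67481199-67481228, minus strand): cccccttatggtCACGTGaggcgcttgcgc
CTSA (chr20:45891298-45891327, plus strand): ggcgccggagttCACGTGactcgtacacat
GAA, first copy (chr17:80101493-80101522, plus strand): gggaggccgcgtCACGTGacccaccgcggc
GAA, second copy (chr17:80101538-80101567, plus strand): gctcccgccggtCACGTGacccgcctctgc
LAMP1, first copy (chr13:113297199-113297228, plus strand): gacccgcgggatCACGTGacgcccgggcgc
LAMP1, second copy (chr13:113297226-113297255, plus strand): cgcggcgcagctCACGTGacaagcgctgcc
MCOLN1, first copy (chr19:7522571-7522600, plus strand): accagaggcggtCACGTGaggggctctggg
MCOLN1, second copy (chr19:7522598-7522627, plus strand): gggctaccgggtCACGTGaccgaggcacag

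Both members whose levels differed most between the arms, TFEB and ULK1, lacked CACGTG in their matched promoters. Their 250 bases upstream of a start site are given because the later results turn on these genes, with the SMAD box CAGAC, or GTCTG on the other strand, in capitals. The TFEB sequence lies before the start of transcript TFEB-204 and held no such letters, while another of the 3 matched TFEB starts held 1. The ULK1 sequence lies before the start of ULK1-201 and held 1. CAGAC was found in 13 of the 26 matched members and in 45.3% of all promoters, so it did not set the members apart.
TFEB (chr6:41735609-41735858, minus strand): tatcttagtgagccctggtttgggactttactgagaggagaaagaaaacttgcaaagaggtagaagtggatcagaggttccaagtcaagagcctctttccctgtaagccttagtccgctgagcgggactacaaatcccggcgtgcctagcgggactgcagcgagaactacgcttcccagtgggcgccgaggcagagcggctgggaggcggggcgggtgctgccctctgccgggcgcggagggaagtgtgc
ULK1 (chr12:131894372-131894621, plus strand): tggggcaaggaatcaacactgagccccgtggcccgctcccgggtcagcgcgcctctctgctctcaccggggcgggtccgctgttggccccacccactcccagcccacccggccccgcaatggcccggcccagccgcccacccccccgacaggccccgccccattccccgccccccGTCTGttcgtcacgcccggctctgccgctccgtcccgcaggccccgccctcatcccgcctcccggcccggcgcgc

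Library totals ranged from 46613589 to 77964234 estimated counts. Replicate 2 of both arms at 0 h and at 24 h stood apart from its group: the TPM summed over the 34 members was 5139 in replicate 2 of the untreated cells at 0 h against 5608 and 5595 in the others, and 6219 against 7341 and 7283 in the TGFβ arm at 24 h. Results that rest on these libraries are therefore also given without them. The deposited tables carry 4 library codes that coincide with arm and with early (0 and 8 h) or late (24 and 48 h) sampling. A difference between the arms at any single time, 8 h included, therefore cannot be told apart from a difference between codes. Changes from 0 to 8 h and from 24 to 48 h lie within a code. As to the cell type, KRT8 and KRT18 lay between 409 and 975 TPM, EPCAM between 22.2 and 36.1 TPM and TP63 between 8.74 and 36.8 TPM (group means), but the squamous keratins KRT5, KRT14 and KRT6A stayed under 0.1 TPM. KRT17, on the same marker list, was at 1.32 TPM in untreated cells and 1.26 TPM in the TGFβ arm at 0 h and at 5.41 and 70.5 TPM at 48 h (group means), and its part in the results was not tested. Of the remaining genes on that list, SOX2 was at 5.23 TPM in untreated cells and 0.432 TPM in the TGFβ arm at 48 h, and CDH1 at 5.22 and 4.47 TPM. Summed markers of macrophages and leukocytes lay between 3.15 and 7.43 TPM per library. Of these 5 markers, 3 reached 1 TPM in some group, and TYROBP was at or near 0. CSF1R was at 1.41 TPM in untreated cells and 3.83 TPM in the TGFβ arm at 8 h, and at 1.18 and 3.27 TPM at 48 h (group means). Of 4 fibroblast markers, COL1A2 was near 0 and the other 3 exceeded 1 TPM in some group, and their sum was 46.2 TPM in untreated cells and 21.5 TPM in the TGFβ arm at 48 h (group means). The part of all these markers in the results was not tested.

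Between the arms, members differed in both directions, as all tested genes did. Over 8, 24 and 48 h together, 22 of the 34 members differed between the arms, 11 of them higher and 11 lower with TGFβ (moderated F-test of limma voom, adjusted p of 0.01), against 42.5% of all tested genes (21% higher and 21.5% lower). TFEB and ULK1 about doubled, while no other member changed by more than 0.39 on the log2 scale on average. The median difference of the members was -0.01 and that of all tested genes -0.02. When HPRT1 and GAPDH, which themselves were lower with TGFβ, were used to scale the libraries, the median of all genes moved to 0.297 and the split became 26 higher and 0 lower. Under this scaling the averages of HEXA, CTSC, ATP6V1A, ATP6V1H, SQSTM1, ATG7, NPC1 and NPC2, among those called lower, turned above 0 but stayed below that median, while those of CTSA, CTSH and CTSS remained under 0 without passing. With library totals the split was 7 higher and 17 lower. The number of all genes called was 12026 with HPRT1 and GAPDH and 8167 with library totals, where the median of all genes was -0.105. Taken as 1 contrast, the average itself passed for 22 members (13 higher and 9 lower), against 40.7% of all genes (19.9% higher and 20.8% lower).

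At 0 h no member differed, as was the case for 0% of all genes. A single member, HEXA, had an unadjusted p under 0.05, as did 800 of all genes, and edgeR called 0 and DESeq2 8 of all genes there. At 8 h, 6 members had changed (4 higher and 2 lower), against 16.4% of all genes (9.12% and 7.25%). By 24 h the number was 13 (5 higher and 8 lower), against 29.3% of all genes (15.4% and 13.8%). By 48 h it was 21 (13 higher and 8 lower), against 32.6% of all genes (16.1% and 16.4%). These splits moved with the scaling: scaled by HPRT1 and GAPDH they were 12 and 0, 20 and 0, and 28 and 0, and under library totals 3 and 5, 5 and 15, and 8 and 11. Of the 17454 tested genes, HPRT1 and GAPDH gave 3675, 9144 and 11412 calls, with medians of all genes of 0.115, 0.32 and 0.467. Library totals gave 3356, 5560 and 6097 calls, with medians of all genes of -0.0996, -0.11 and -0.0959. TPM values of the arms did not overlap for 2 members, HEXA and WIPI1, at 0 h (7% of all genes) and for 21 at 8 h (47.4% of all genes). The later numbers were 19 after 24 h (40.3%) and 28 after 48 h (55.1%). For 9 members they stayed apart in the same direction at each time from 8 h on (18.8% of all genes), namely above the untreated libraries for TFEB, ULK1 and CTSZ and below them for CTSA, CTSC, CTSH, HEXA, ATP6V1A and GUSB.

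**Figure D1:**
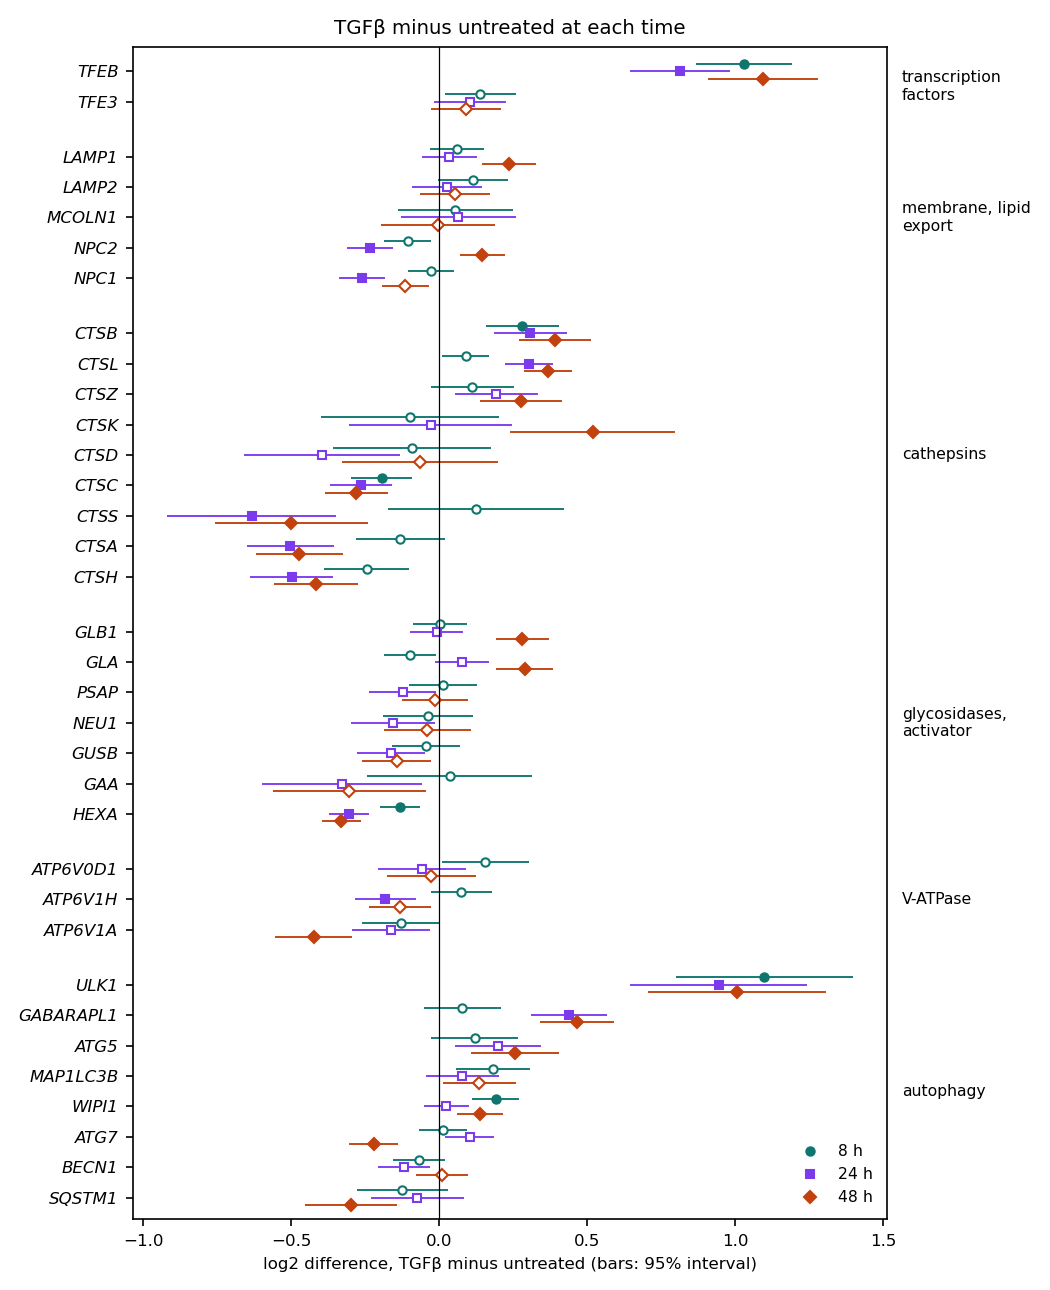
Log2 difference between the TGFβ arm and untreated cells (x axis) for each of the 34 members (y axis, grouped by role) at 8 h (circles), 24 h (squares) and 48 h (diamonds), with 95% intervals from limma voom; filled symbols passed an adjusted p of 0.01. TFEB and ULK1 lie near 1 at every time, and the other members lie between -0.63 and 0.52.

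TFEB, located at chr6:41683978-41736259 on the minus strand (GRCh38), was scarce at the start and rose in both arms. At 0 h its TPM was 2.15, 2.19 and 2.65 in the untreated libraries and 2.11, 1.83 and 2.49 in those of the TGFβ arm. At 8 h it was 7.14, 7.58 and 6.58 without and 13.5, 14.2 and 14.0 with TGFβ. The arms overlapped at 0 h and were fully separated at 8 h. At 24 h the untreated libraries held 8.33, 6.75 and 6.76 TPM and the stimulated ones 13.0, 11.2 and 12.8. At 48 h these were 5.21, 4.86 and 4.73 against 11.1, 11.5 and 9.72. All stimulated libraries thus exceeded all untreated ones at the later times as well, and the untreated level had declined by 48 h. The fold difference was 2.04 at 8 h (log2 1.03 ± 0.08 SE, adjusted p = 1.5e-09), 1.76 at 24 h (0.81 ± 0.08, adjusted p = 5.1e-08) and 2.14 at 48 h (1.10 ± 0.09, adjusted p = 1.7e-09; limma voom). Without TGFβ, TFEB rose by 1.63 on the log2 scale from 0 to 8 h, with TGFβ by 2.75 over the same interval, and the difference of both changes was 1.11 ± 0.16 (adjusted p = 2.3e-05).

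The shares of the TFEB transcripts varied between groups and also between replicates. Of the annotated TFEB transcripts, 5 held at least 10% of the gene's TPM in some group. TFEB-207 and TFEB-204 were the most abundant before stimulation, with 32.0% ± 10.1 and 34.8% ± 8.8 (SD, n = 3) of the gene's TPM in untreated cells at 0 h. TFEB-203 made up 1.73% ± 3.0 in the TGFβ arm at 8 h, 19.6% ± 3.1 at 24 h and 32.4% ± 4.7 at 48 h, while in untreated cells it was at 9.10% ± 15.8 and 5.45% ± 9.4 at the latter times. TFEB-204 held 18.8% ± 4.7 in the TGFβ arm at 48 h. TFEB-205 stayed between 7.64% and 12.5%, and TFEB-206 varied widely among replicates, from 0.00161% to 18.8% as group means. At TPM values this low, how kallisto divides reads among overlapping transcripts adds uncertainty, and these shares were not tested.

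TFE3, the paralog of TFEB and on the X chromosome, was more abundant and differed little. Its TPM at 8 h was 29.96, 29.6 and 30.3 in untreated and 31.8, 31.7 and 30.7 in stimulated libraries. At 0 h it had been 28.0, 23.7 and 26.7 against 25.8, 24.3 and 26.4, and at 24 h it was 29.8, 28.2 and 30.6 against 31.2, 28.9 and 31.0. At 48 h both arms were higher, with 40.1, 38.9 and 39.0 against 42.4, 44.6 and 40.3. The arms overlapped at 0 and 24 h and were narrowly separated at 8 and 48 h. TFE3 did not pass the F-test (adjusted p = 0.047), and its log2 differences were 0.14 (95% interval 0.02 to 0.26) at 8 h, 0.10 (-0.02 to 0.23) at 24 h and 0.09 (-0.03 to 0.21) at 48 h. Without the 4 libraries that stood apart it passed (adjusted p = 0.00104). As a single contrast its average difference of 0.11 ± 0.03 passed as well (adjusted p = 0.0081). TFE3 also rose with time, by 0.53 ± 0.06 in untreated cells and 0.60 ± 0.06 in the TGFβ arm from 0 to 48 h.

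ULK1, the kinase that initiates autophagosome formation (chr12:131894622-131923150, plus strand), was the other member with a large response. At 0 h its TPM was 33.1, 23.8 and 31.1 in the untreated and 28.4, 19.6 and 31.0 in the TGFβ arm. After 8 h the untreated libraries were at 33.5, 33.9 and 31.6 TPM, while the stimulated ones had reached 69.8, 66.6 and 61.0. The 2 arms overlapped before stimulation and no longer did at 8 h. At 24 h they stood at 42.2, 32.8 and 39.5 against 78.9, 54.4 and 80.3, and at 48 h at 42.2, 36.1 and 35.8 against 78.1, 73.9 and 69.8. Replicate 2 of the TGFβ arm at 24 h was the lowest of the late stimulated libraries and was still above every untreated one. ULK1 was 2.14-fold higher at 8 h (log2 1.10 ± 0.14, adjusted p = 4.6e-06), 1.93-fold at 24 h (0.95 ± 0.14) and 2.01-fold at 48 h (1.01 ± 0.14). Its change from 0 to 8 h was 1.19 ± 0.21 larger with TGFβ (adjusted p = 0.00038). TFEB and ULK1 were the 2 members for which this change differed between the arms, both upward, against 7.88% of all genes (5.05% upward and 2.84% downward). Leaving out the 4 libraries gave 5 members, adding CTSB (0.26), WIPI1 (0.21) and SQSTM1 (-0.17). ULK1 was also the 1 member with an average difference of at least 2-fold, which 5.6% of all genes reached. Transcript ULK1-201 carried 60.9% ± 1.8 of its TPM in untreated cells at 0 h and between 77.0% and 83.0% in every group from 8 h on, so this shift occurred in both arms.

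**Figure D2:**
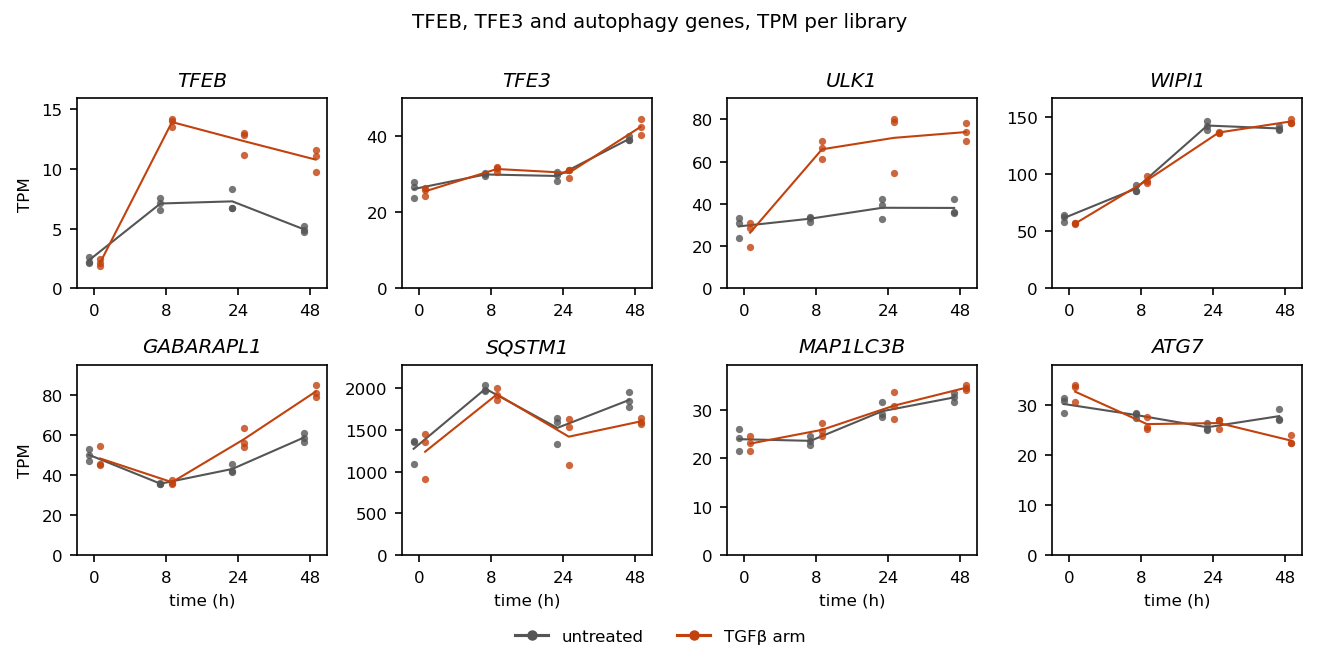
TPM (y axis, from 0) of TFEB, TFE3 and 6 autophagy genes against time in hours (x axis, evenly spaced), with 1 point per library and lines through the means of 3 libraries, for untreated cells (grey) and the TGFβ arm (orange). At 8 h the arms do not overlap for TFEB, ULK1, TFE3, WIPI1 and MAP1LC3B, as for 47.4% of all genes. The gaps are widest for TFEB and ULK1. GABARAPL1 separates at 24 h, and SQSTM1 shows the low replicate 2 at 0 and 24 h.

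Among the other autophagy genes, GABARAPL1, a ubiquitin-like protein of the autophagosome membrane, rose late. Its TPM at 0 h was 47.2, 50.2 and 53.3 without and 45.0, 54.4 and 45.6 with TGFβ, and at 8 h it had declined to 35.5, 35.5 and 36.2 against 35.9, 35.7 and 37.8. At 24 h it was 42.0, 45.7 and 41.6 against 53.9, 63.7 and 56.2, and at 48 h 56.8, 61.2 and 58.6 against 84.9, 81.1 and 79.3. The arms overlapped at 0 and 8 h and were apart afterwards. The log2 difference was 0.44 ± 0.06 at 24 h (adjusted p = 6.1e-06) and 0.46 ± 0.06 at 48 h (adjusted p = 1.6e-06). GABARAPL1-201 held between 87.4% and 91.7% of the gene's TPM in all groups.

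Of the remaining autophagy members, WIPI1, which binds phosphoinositides on the forming membrane, was higher with TGFβ at 8 h (0.19 ± 0.04) and at 48 h (0.14 ± 0.04). It was not called at 0 and 24 h, where its TPM lay lower in the TGFβ arm without overlap. The TGFβ libraries held 56.1 to 57.3 against 58.0 to 64.3 TPM at 0 h, and 136 to 137 against 139 to 147 TPM at 24 h. ATG5, part of the conjugation machinery, was higher with TGFβ at 48 h (0.26 ± 0.07). ATG7, the activating enzyme of that machinery, was lower at 48 h (-0.22 ± 0.04), with 27.0, 27.1 and 29.0 TPM in untreated against 23.9, 22.3 and 22.3 TPM in stimulated libraries, which did not overlap. SQSTM1, the p62 cargo receptor and with CTSD the most abundant member, was lower at 48 h (-0.30 ± 0.07), where TPM was 1956, 1845 and 1779 against 1645, 1573 and 1592. MAP1LC3B, which encodes LC3B, had differences of 0.18, 0.08 and 0.14 at the 3 times and did not pass the F-test. Its average difference passed as a single contrast and lost that call under 4 of 13 alternative settings. At 8 and 48 h its TPM was higher in every TGFβ library than in every untreated one. BECN1, the Beclin subunit of the lipid kinase complex, did not pass the F-test either. Of the 8 autophagy members, 4 were higher and 2 lower in the F-test (21% and 21.5% of all genes).

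The cathepsins were split between the directions, as were all tested genes (21% higher and 21.5% lower in the F-test). Of 9 members, 3 were higher (CTSB, CTSL and CTSZ), 4 lower (CTSA, CTSC, CTSH and CTSS) and 2 did not pass the F-test (CTSD and CTSK). Cathepsins are lysosomal proteases: CTSD is an aspartic protease, CTSA a serine carboxypeptidase that also protects other hydrolases, and the others are cysteine proteases. CTSB on chromosome 8 had the largest average rise of the 3 over 8, 24 and 48 h. Its TPM at 0 h was 369, 337 and 382 in the untreated and 349, 317 and 375 in the TGFβ arm, and at 8 h it was 386, 390.2 and 389 against 447, 444 and 446. At 24 h it was 426, 403 and 464 against 517, 455 and 549, and at 48 h 484, 465 and 468 against 615, 609 and 597. The arms were apart at 8 and 48 h and overlapped at 0 and 24 h, where replicate 2 was the lowest of each group. CTSB was higher by 0.28 ± 0.06 at 8 h, 0.31 ± 0.06 at 24 h and 0.39 ± 0.06 at 48 h. Its most abundant transcript, CTSB-204, held 30.2% to 34.6% of the gene's TPM as group means. CTSL was higher by 0.30 at 24 h and 0.37 at 48 h, and CTSZ by 0.28 at 48 h. CTSK, known from bone resorption, had group means between 1.51 and 2.64 TPM and was higher at 48 h only (0.52 ± 0.13).

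CTSH, an aminopeptidase, and CTSA showed the reverse. CTSH stood at 60.5, 56.0 and 60.6 TPM in untreated libraries at 0 h and at 60.5, 52.9 and 55.5 in those of the TGFβ arm. At 8 h it was 68.4, 71.9 and 73.5 against 56.0, 58.4 and 59.4, at 24 h 107, 103 and 104 against 73.4, 65.0 and 77.3, and at 48 h 90.5, 91.2 and 91.5 against 70.8, 66.2 and 67.6. Without TGFβ the level climbed to 24 h, and every stimulated library was below every untreated one from 8 h on. The log2 difference of CTSH was -0.50 ± 0.07 at 24 h (adjusted p = 3.4e-06) and -0.42 ± 0.07 at 48 h (adjusted p = 3.8e-05). It was -0.24 at 8 h, which did not pass with all libraries but did when the 4 libraries were left out (adjusted p = 0.000408).

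For CTSA, whose promoter carries a printed TCACGTGA, untreated libraries held 344, 303 and 329 TPM at 0 h and 399, 406 and 408 at 8 h. The TGFβ arm held 316, 281 and 325 at 0 h and 345, 354 and 351 at 8 h. At 24 h the values were 646, 599 and 655 against 458, 397 and 453, and at 48 h 735, 708 and 697 against 517, 516 and 483. Both arms rose with time and the TGFβ arm rose less, with a change from 0 to 48 h of 1.08 ± 0.07 in untreated and 0.68 ± 0.07 in stimulated cells. The log2 difference between the arms was -0.50 ± 0.07 at 24 h and -0.47 ± 0.07 at 48 h (adjusted p = 6.5e-06 and 1.1e-05).

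CTSS, a cathepsin best known from antigen presentation, was close to the lower end of detection. In untreated libraries it was at 1.64, 1.19 and 0.861 TPM at 0 h and 1.69, 1.35 and 1.45 at 8 h, and in the TGFβ arm at 0.829, 1.04 and 1.03 and then 1.69, 1.54 and 1.53. At 24 h it was 2.76, 2.44 and 2.32 against 1.33, 1.24 and 1.42, and at 48 h 3.54, 3.99 and 3.70 against 2.26, 2.37 and 2.37. The late arms did not overlap, and the early ones did. These levels correspond to 63.2 to 156 estimated counts per group mean. The log2 difference was -0.63 ± 0.14 at 24 h (adjusted p = 0.00081) and -0.50 ± 0.12 at 48 h (adjusted p = 0.0026). CTSC, an activator of serine proteases, was lower at all 3 times (-0.19, -0.26 and -0.28). CTSD, the most abundant cathepsin with 1785 ± 165 TPM in untreated and 1372 ± 205 TPM in stimulated cells at 24 h, had a difference of -0.40 there (adjusted p = 0.016), which passed without replicate 2 at 0 and 24 h (-0.32, adjusted p = 2.56e-05).

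Of the 7 glycosidases and their activator, GLA and GLB1 were higher and HEXA was lower in the F-test (21% and 21.5% of all genes). HEXA, the alpha subunit of beta-hexosaminidase, was lower in the TGFβ arm throughout. Its TPM was 178, 180.0 and 184 in untreated and 163, 168 and 168 in TGFβ libraries at 0 h, and 199.8, 199 and 198 against 171, 172 and 180.2 at 8 h. At 24 h it was 262, 256 and 260.1 against 204, 205 and 209, and at 48 h 343, 337 and 327 against 256, 265 and 271. The arms were apart at every time, including 0 h, when the log2 difference was -0.10 ± 0.03 (adjusted p = 0.89). After 8 h the difference was -0.13 ± 0.03, close to that before stimulation, and after 24 and 48 h it was -0.31 ± 0.03 and -0.33 ± 0.03. The change of HEXA from 0 to 8 h was not among those that differed between the arms.

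GLA, alpha-galactosidase A, and GLB1, beta-galactosidase, were higher at 48 h only (0.29 ± 0.05 and 0.28 ± 0.04). GLB1 TPM at 48 h was 93.5, 88.7 and 86.9 in untreated and 116, 104 and 108 in stimulated libraries, whereas at 24 h it was 86.4, 86.9 and 86.4 against 84.3, 96.6 and 83.0. The arms overlapped at 24 h and not at 48 h. GAA (acid alpha-glucosidase), NEU1 (sialidase), GUSB (beta-glucuronidase) and PSAP, the precursor of the saposins that present lipids to glycosidases, did not pass the F-test. GAA had differences of -0.33 at 24 h and -0.30 at 48 h, which passed without the 4 libraries at -0.28 and -0.30 (adjusted p = 0.000345 and 9.04e-06).

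Among proteins of the membrane and of lipid export, LAMP1, a heavily glycosylated protein that lines the lysosome, was higher at 48 h only (0.24 ± 0.04). LAMP2 and MCOLN1, a cation channel, did not pass. NPC1 and NPC2 hand cholesterol out of the lysosome, NPC2 as a soluble carrier and NPC1 as a membrane transporter. NPC1 was lower at 24 h (-0.26 ± 0.04). NPC2 changed sides: its TPM at 24 h was 327, 334 and 331 in untreated against 276, 274 and 278 in stimulated libraries, and at 48 h 346, 329 and 332 against 382, 363 and 358. The arms did not overlap at either time and their order turned over. The difference went from -0.23 ± 0.04 to 0.15 ± 0.04, a change of 0.38 ± 0.05 within the library code of each arm (adjusted p = 2.9e-05). Such a change of the TGFβ difference between 24 and 48 h passed for 3 members, against 9.12% of all genes: 2 were upward (NPC2 and GLB1, 0.29 ± 0.06; 3.5% of all genes) and 1 downward (ATG7, -0.33 ± 0.06; 5.61%). Without replicate 2 at 0 and 24 h it passed for 7, adding CTSD (0.25), LAMP1 (0.19), ATP6V1A (-0.23) and SQSTM1 (-0.25).

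LAMP2 transcripts differ in the tail that faces the cytoplasm, and 3 of them exceeded 10% of its TPM. From 0 to 48 h LAMP2-201 went from 34.9% ± 1.4 to 44.7% ± 0.7 in untreated and from 32.0% ± 1.4 to 38.4% ± 1.4 in stimulated cells, LAMP2-202 from 50.5% ± 1.2 to 41.5% ± 1.2 and from 52.8% ± 1.7 to 46.7% ± 0.3. LAMP2-204 lay between 8.88% and 11.1%. The shares are descriptions without a test.

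The V-ATPase consists of a soluble V1 sector, which splits ATP, and a V0 sector in the membrane, through which protons pass. ATP6V1A, the catalytic subunit, was lower at 48 h (-0.42 ± 0.06) with 79.6 ± 2.3 TPM in untreated and 57.2 ± 1.5 TPM in stimulated cells. ATP6V1H, a regulatory subunit, was lower at 24 h (-0.18 ± 0.05). ATP6V0D1 was not called at any time and remained between 163 and 179 TPM.

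**Figure D3:**
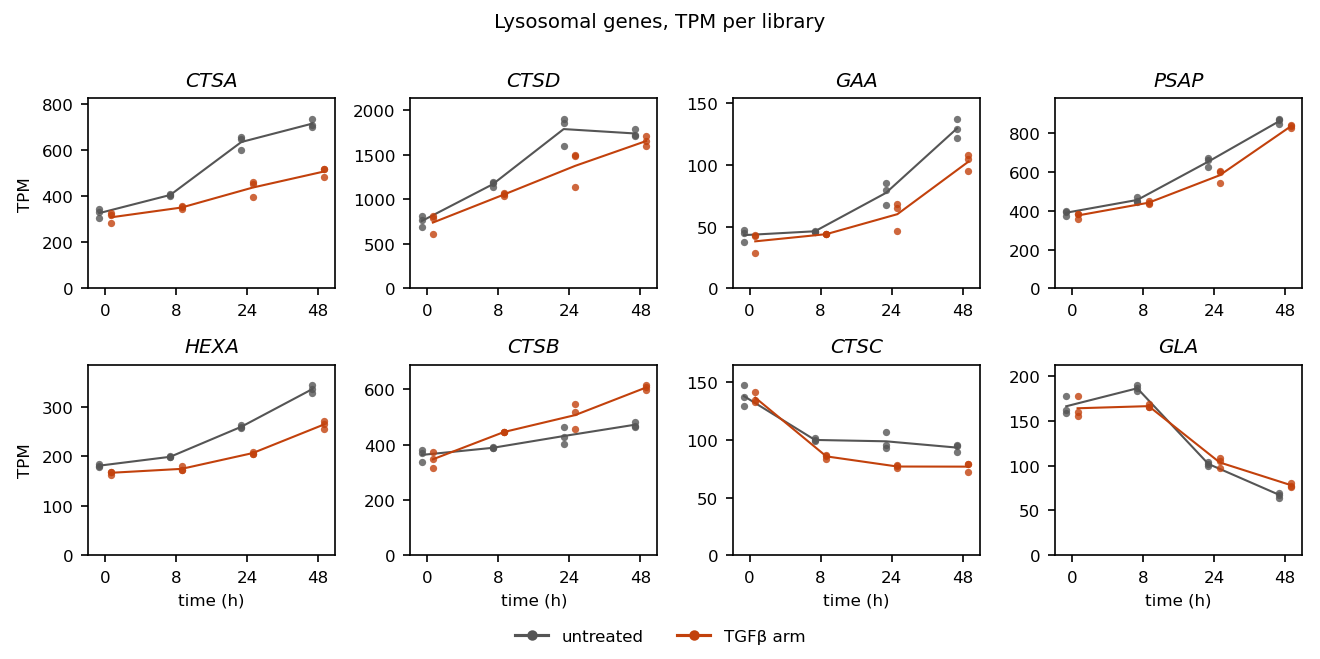
TPM (y axis, from 0) of 8 lysosomal genes against time in hours (x axis, evenly spaced), with 1 point per library and lines through the means of 3 libraries, for untreated cells (grey) and the TGFβ arm (orange). CTSA, HEXA and GAA climb in both arms and lie lower with TGFβ at 48 h, CTSB lies higher, and CTSC and GLA decline in both arms.

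Most members changed with time in both arms, and more of them upward than downward. In untreated cells 26 of 34 members differed between 48 and 0 h, 21 higher and 5 lower, against 55.1% of all genes (28% higher and 27.1% lower). The median log2 change was 0.39 for the members and 0.01 for all genes. In the TGFβ arm the number was again 26, 20 higher and 6 lower, against 57.9% of all genes (29.8% higher and 28.1% lower), with medians of 0.53 and 0.02. These changes span the early and late library codes in each arm. Scaled by HPRT1 and GAPDH, which moved the medians of all genes to 0.724 and 1.26, the splits were 32 higher and 1 lower without and 34 higher and 0 lower with TGFβ, and GLA, CTSC, ATG5 and ATG7 were among those higher in the TGFβ arm. Under this scaling 13194 and 15028 of all genes were called.

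Within a code, 17 members changed from 0 to 8 h in untreated cells (11 higher and 6 lower), against 25.9% of all genes (13.2% and 12.7%), led by TFEB (1.63), SQSTM1 (0.67), CTSD (0.58) and WIPI1 (0.47) and, downward, GABARAPL1 (-0.51) and CTSC (-0.45). This count fell to 10 without replicate 2 of the untreated cells at 0 h or at 8 h, and to 11 without replicate 3 at 0 h or replicate 1 or 3 at 8 h. In the TGFβ arm the count was 17 as well (11 higher and 6 lower), against 33.8% of all genes (17.5% and 16.3%), led by TFEB (2.75), ULK1 (1.58) and WIPI1 (0.68) and, downward, CTSC (-0.64). From 24 to 48 h, 10 members changed in untreated cells (6 higher and 4 lower), against 28.4% of all genes (14.8% and 13.6%), with GAA (0.75) as the largest rise and GLA (-0.65) and TFEB (-0.55) as the largest falls. With TGFβ 11 changed over that interval (8 higher and 3 lower), against 25.8% of all genes (12.4% and 13.4%), again with GAA (0.77) and GLA (-0.44) at the ends. TFEB was not called in the TGFβ arm between 24 and 48 h unless the 4 libraries were left out (-0.33, adjusted p = 0.000211). Scaled by HPRT1 and GAPDH, the splits from 0 to 8 h were 14 and 2 in untreated and 26 and 1 in stimulated cells, and from 24 to 48 h 29 and 1 and 34 and 0. Of all genes, this scaling called 4787 and 8705 from 0 to 8 h (medians 0.13 and 0.318). From 24 to 48 h it called 11964 and 13324 (medians 0.514 and 0.658).

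Of the 34 members, 17 were higher at 48 than at 0 h in both arms: the factors TFEB and TFE3, the cathepsins CTSA, CTSB, CTSD, CTSS and CTSZ, the glycosidase group GAA, GLB1, HEXA, NEU1 and PSAP, as well as NPC2, ATP6V1A, MAP1LC3B, ULK1 and WIPI1. GAA rose most in untreated cells, from 43.0 ± 5.0 to 129 ± 7.7 TPM (log2 1.66 ± 0.13), and from 38.0 ± 8.3 to 102 ± 6.8 TPM in the TGFβ arm (1.44 ± 0.13). PSAP went from 390 ± 14.1 to 862 ± 15.6 TPM and from 375 ± 14.9 to 835 ± 8.5 TPM (1.10 and 1.11), and CTSD by 1.11 and 1.07, so these changes were nearly equal in both arms. Lower in both arms were ATG5, ATG7, CTSC and GLA, of which GLA fell from 166 ± 10.6 to 67.2 ± 2.8 TPM without and from 164 ± 11.8 to 78.2 ± 2.4 TPM with TGFβ. A further 10 members were called in 1 arm only, which does not show that the arms differ, and ATP6V0D1, LAMP2 and MCOLN1 in neither. Of all genes, 28% were higher and 27.1% lower in untreated cells, and 29.8% and 28.1% in the TGFβ arm. How many of all genes were called in both arms was not counted. Of the 7 members with CACGTG in the promoter, CTSA, CTSD, GAA and NEU1 were higher in both arms, LAMP1 in the TGFβ arm, and MCOLN1 and ATP6V0D1 in none. Among all 34 members 17 were higher in both arms, and a link between the motif and these changes was not tested.

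**Figure D4:**
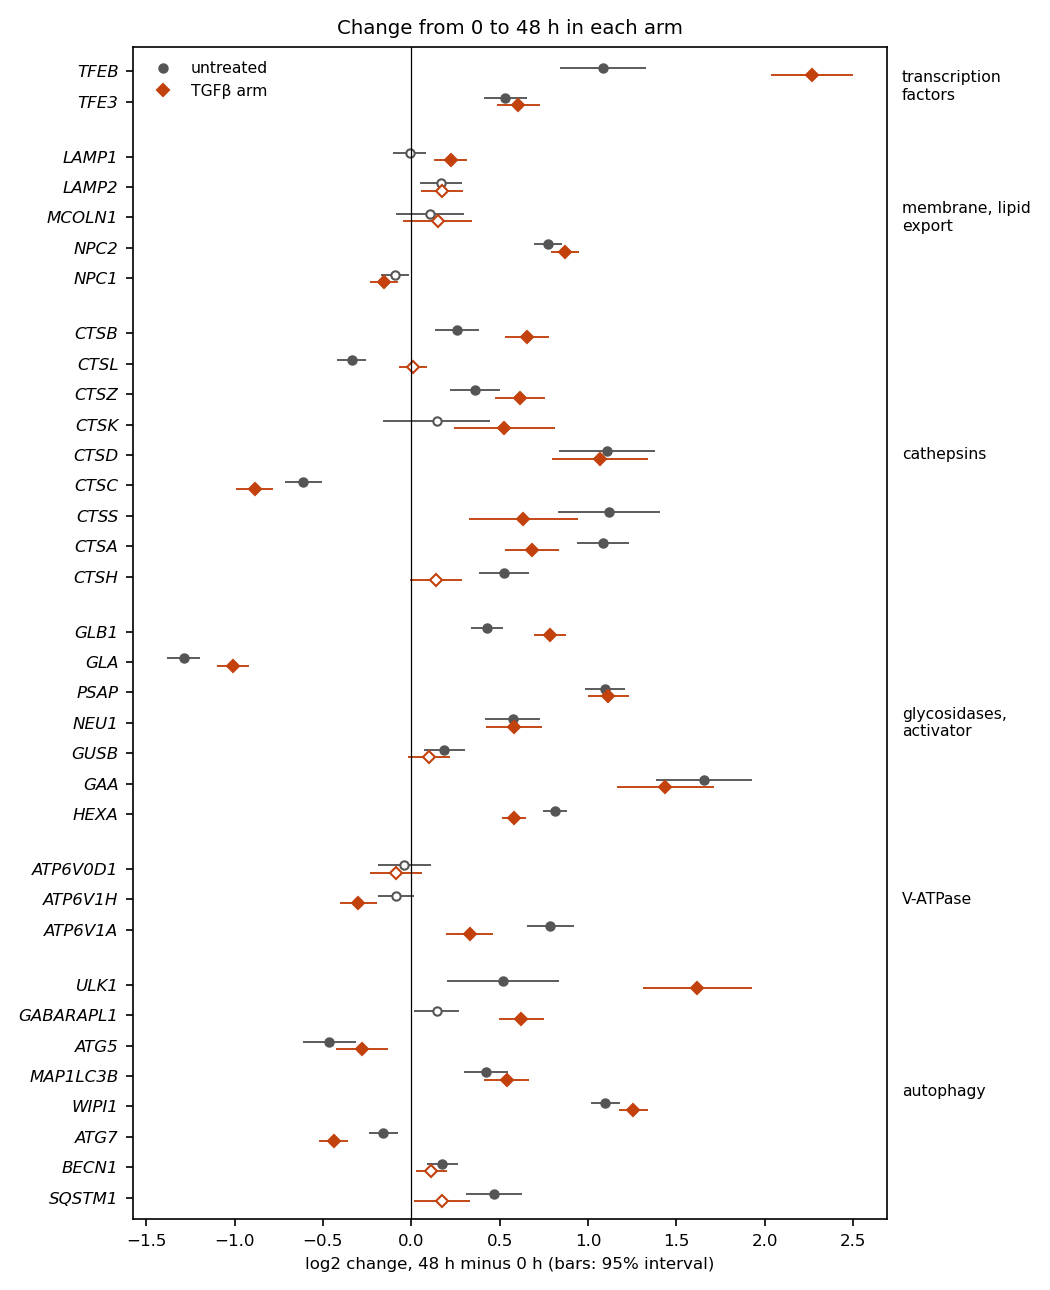
Log2 change from 0 to 48 h (x axis) of each of the 34 members (y axis, grouped by role) in untreated cells (grey circles) and in the TGFβ arm (orange diamonds), with 95% intervals from limma voom; filled symbols passed an adjusted p of 0.01. Most members lie to the right of 0 in both arms, GAA at 1.66 and 1.44, and GLA lies at -1.29 and -1.01.

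GUSB deserves separate values because the study used it as a reference for qRT-PCR, as it did HPRT1 and GAPDH. Its TPM at 0 h was 94.98, 84.0 and 88.3 in untreated libraries and 83.8, 78.2 and 84.5 in those of the TGFβ arm, and at 8 h 89.7, 89.1 and 85.8 against 80.8, 80.6 and 81.1. At 24 h it was 106, 95.3 and 106 against 92.4, 84.2 and 89.2, and at 48 h 106, 101 and 104 against 95.3, 94.7 and 92.2. The arms overlapped at 0 h, and from 8 h on every stimulated library was the lower one. GUSB was not called at any single time (log2 differences of -0.04, -0.16 and -0.14, the largest with adjusted p = 0.022) and not by the F-test (adjusted p = 0.015), while its average difference of -0.12 ± 0.03 passed as a single contrast (adjusted p = 0.004). Without replicate 2 at 0 and 24 h it passed the F-test (adjusted p = 0.000241).

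HPRT1 and GAPDH moved further. GAPDH, a glycolytic enzyme, differed on average by -0.28 and HPRT1, an enzyme of purine salvage, by -0.36, and both passed the F-test. The log2 ratio of GUSB to the mean of both genes was accordingly higher with TGFβ than in untreated cells, by 0.07 at 8 h, by 0.19 after 24 h and by 0.40 after 48 h, and it differed by -0.11 before stimulation. Its mean difference over the 3 later times was 0.22 (two-sided exact permutation test within times, 8000 relabellings, p = 0.00425; the smallest possible is 0.00025). From 0 to 48 h HPRT1 fell by 0.89 on the log2 scale in untreated cells and by 1.52 in the TGFβ arm. GUSB had changes of 0.19 and 0.10, the smallest of these 3 genes in either arm. The GUSB rise was called in untreated cells (limma voom, adjusted p = 0.0055) and not in the TGFβ arm. The annotation lists 20 GUSB pseudogenes in the tables, with 53.0 to 71.7 TPM in all per library, and reads could have been divided between them and GUSB.

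**Figure D5:**
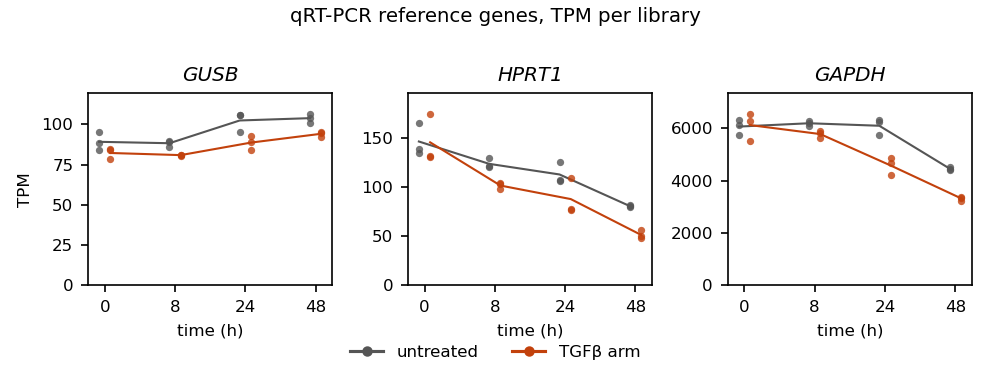
TPM (y axis, from 0) of GUSB, HPRT1 and GAPDH against time in hours (x axis, evenly spaced), with 1 point per library and lines through the means of 3 libraries, for untreated cells (grey) and the TGFβ arm (orange). HPRT1 and GAPDH lie lower at 48 h than at 0 h in both arms and lowest with TGFβ, while GUSB ranges from 78.2 to 106 TPM.

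Around the 34 members, 124 further genes of the same pathways were examined, of which 122 were tested (TFEC and CTSW had too few counts). In the F-test 21 were higher and 26 lower with TGFβ, against 42.5% of all genes (21% higher and 21.5% lower). Of the tested genes, 8 of 33 genes of the autophagy machinery were higher and 3 lower. ATG9A, the membrane-spanning lipid scramblase, was higher at all 3 times (0.39, 0.44 and 0.69), as was ATG13, a subunit of the ULK1 complex (0.17, 0.28 and 0.31), and ULK2, the ULK1 paralog, was higher at 24 and 48 h (0.23 and 0.39). VAMP8, a fusion SNARE, was lower (-0.26 on average), as were ATG10 (-0.16) and EPG5, a tethering factor (-0.19). Of 8 receptors, OPTN was higher (0.17), and the mitophagy receptors BNIP3 (-0.73) and FUNDC1 (-0.18) were lower. BNIP3 was at 33.3 ± 0.55 TPM in untreated and 22.4 ± 0.55 TPM in stimulated cells at 8 h.

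Of 18 tested genes that regulate TFEB or belong to mTORC1, 4 were higher and 3 lower. FNIP2, a partner of folliculin, was higher at each time (0.53, 0.84 and 0.53), with 6.96 ± 0.26 against 9.38 ± 0.80 TPM at 8 h. MTOR was higher on average by 0.12, and RRAGA passed with differences of opposite sign (0.18 at 8 h and -0.13 at 24 h). RRAGD, the Rag GTPase that works with folliculin, was lower at 24 and 48 h (-0.50 and -0.78), where untreated cells reached 5.60 ± 0.50 and stimulated cells 2.98 ± 0.40 TPM at 48 h. LAMTOR5 and LAMTOR4 of the Ragulator scaffold were lower (-0.19 and -0.20 on average).

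Of 29 tested hydrolases outside the set, 3 were higher and 8 lower, against 21% and 21.5% of all genes. SGSH, a sulfatase for heparan sulfate, was at 33.8 ± 3.7 TPM in untreated and 22.5 ± 0.23 TPM in stimulated cells at 8 h and at 94.4 ± 3.9 and 36.5 ± 2.7 TPM at 48 h (log2 difference -0.46 and -1.33). FUCA1, an alpha-fucosidase, differed by -0.75 at 24 h and -1.07 at 48 h, and LGMN, the asparagine-specific protease legumain, by 0.20 at 8 h but -0.52 and -0.70 later. ACP2 (0.21), IDS (0.14) and ARSB (0.21) were higher on average. Of 13 further V-ATPase subunits, 1 was higher and 4 lower: ATP6V0A2 differed by 0.27 on average, and ATP6V1E1, ATP6V0A1 and ATP6V1F by -0.28, -0.32 and -0.30. Of 6 genes for the sorting of lysosomal proteins, SORT1 was higher (0.11), and IGF2R was counted as lower with differences of -0.17, 0.14 and -0.09.

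In 11 further membrane genes, 2 were higher (LAPTM4B, 0.08, and SCARB2, 0.13) and 4 lower, among them SLC17A5 (-0.30) and TMEM192 (-0.16). LAMP3, a relative of LAMP1 and LAMP2, had the largest difference. Its TPM at 48 h was 15.8, 14.4 and 13.1 in untreated and 2.87, 2.93 and 3.15 in stimulated libraries, and at 0 h it had been 3.21, 3.08 and 3.57 against 2.37, 2.95 and 3.52. At 48 h the untreated libraries thus lay above the starting range and the stimulated ones within it. The log2 differences of LAMP3 were -0.43, -1.72 and -2.26 at the 3 times. The inhibitors of cysteine cathepsins went apart: CST6 (cystatin E/M) rose from 0.134 ± 0.14 TPM in untreated to 2.21 ± 0.56 TPM in stimulated cells at 48 h (log2 4.48, at low counts in untreated cells), while CSTB (cystatin B) was lower (-0.28), at 109 ± 1.8 against 87.7 ± 1.2 TPM. Over time, 67 of the 122 genes were higher and 16 lower at 48 than at 0 h in untreated cells (28% and 27.1% of all genes), and 67 and 17 in the TGFβ arm (29.8% and 28.1% of all genes). These splits were taken with TMM factors, and scaling by HPRT1 and GAPDH moved the medians of all genes upward, as given for the members.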

How the data were processed

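Per the labels, total RNA of SK-MES-1 cells that had passed an integrity check was sequenced on an Illumina instrument. The authors quantified reads with kallisto 0.43.0 against Ensembl release 79 transcripts of GRCh38 and deposited 1 table per library with 173259 transcripts, without pooling. Estimated counts, as deposited, give the reads that kallisto expects from each transcript. TPM values, also from the authors, are corrected for transcript length and add up to an equal total in all libraries. Effective lengths, the last deposited column used, served the length-scaled alternative alone.

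Transcripts were assigned to genes with GENCODE release 44, by identifier without version. The 17741 transcripts without a match were left out, which kept 94.8% to 95.2% of the counts. Gene sums of estimated counts were rounded. A gene entered the test if 3 or more libraries held 10 or more, which left 17454 genes for limma 3.58.1 in R 4.3.3 (voom weights, TMM factors, 1 mean per group, all 24 libraries, Benjamini-Hochberg adjustment over all tested genes, threshold 0.01). Log2 differences come from this fit, and TPM is given per library or as mean ± SD (n = 3). Where the F-test covers 8, 24 and 48 h, the direction is that of the average difference. The study calls the replicates biological, and p-values measure the spread between them. Counts were low for CTSS, CTSK and CST6 and, at 0 h, for TFEB (119 to 159 estimated counts per library), so counting error weighs more there.

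The members and gene lists were chosen with earlier results of these data known. Named with values are members past the threshold at 8, 24 or 48 h; full library values went to the 4 rising and 4 falling members with the largest average difference past the F-test and to TFEB, TFE3 and GUSB, and further library values to members singled out after their values were seen. Transcripts are named from 10% of a gene's TPM, and other pathway genes up to 3 per list and direction by F-test p.

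Alternatives were edgeR 4.0.16 (quasi-likelihood), DESeq2 1.42.0, limma-trend on TPM in log2 with a pseudocount of 1 or of 0.1, library totals, upper-quartile factors, other filters, length-scaled counts, a replicate block, fits on the libraries compared only, a threshold of 0.05, and each library left out in turn. Leaving out replicate 2 at 0 and 24 h of both arms, HPRT1 and GAPDH as library size, and their mean as the reference for GUSB were chosen after seeing the data. An item of the planned reference set is not reported here. On simulated data for the overall comparison (17205 genes tested), 96 of 100 genes changed by 0.5 and 99 of 100 changed by 1 on the log2 scale were recovered, with 3 unchanged genes called. The changed genes had mean counts above 100 and went up and down in equal number, and all other genes were unchanged. No library was made to stand apart. These rates therefore do not carry over to low counts, to libraries that stand apart or to data in which many genes differ. No 2 replicates agreed within sampling noise (chi-square per gene 3.17 to 60.5 over 24 pairs). Sums used pandas 2.3.3 under Python 3.11.15, and figures matplotlib 3.10.9.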

Additional observations from a re-analysis of the deposited data

Results flagged for a closer look

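For 5 members the difference itself between the arms was tested between times and passed. The change from 0 to 8 h was larger with TGFβ for TFEB (1.11 on the log2 scale) and ULK1 (1.19), and the stimulated libraries of both genes were above the untreated ones in 3 of 3 at 8 h. The difference between the arms shifted from 24 to 48 h for NPC2 (0.38), GLB1 (0.29) and ATG7 (-0.33), with the 3 stimulated libraries of NPC2 below the untreated ones at 24 h and above them at 48 h. NPC2, TFEB and ULK1 kept this call under all 13 alternative settings for it, GLB1 lost it under 4 of 13, and ATG7 under 1 of 13 (-0.18 with HPRT1 and GAPDH as library size). Groups of 3 libraries were not searched for outlying values.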

How the results depend on the processing

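Over 516 combinations of a result and a setting, 493 stayed the same. For a count of members this meant within 1.5 times of the reported count. For the GUSB ratio it meant the same sign and a p on the same side of 0.05. The 516 include the count at 0 h, which was 0 in each setting, and fits without a library from outside the comparison. Numbers in parentheses below are the calls among all tested genes, which moved as well. At 8 h the 6 members (2857) became 12 with HPRT1 and GAPDH as library size (3675). They became 17 with only the libraries compared (5262) and 14 without replicate 2 at 0 and 24 h (4786). At 24 h the 13 (5113) became 20 with library totals (5560) and 20 with HPRT1 and GAPDH (9144). They became 8 with only the libraries compared (2733) and 21 at an adjusted p of 0.05 (6888). The change from 0 to 8 h, reported for 2 members (1376), was called for 6 with HPRT1 and GAPDH (2136), 5 without replicate 2 (2074) and 4 at 0.05 (2129). The change between 24 and 48 h, reported for 3 (1591), was called for 6 with HPRT1 and GAPDH (1809), 7 without replicate 2 (2606) and 5 at 0.05 (2704). In untreated cells 30 members changed from 24 to 48 h with HPRT1 and GAPDH (11964, and 4953 in the reported fit). In the TGFβ arm 27 changed from 0 to 8 h with HPRT1 and GAPDH (8705) and 8 with only the libraries compared (3108). From 24 to 48 h 34 changed there with HPRT1 and GAPDH (13324) and 19 without replicate 2 (5756). The reported fit called 5904 and 4505 of all genes over these 2 intervals. The causes were not tested. The planned scaling by the full reference set was not run.

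Leaving out single libraries gave 20 to 24 members over the 3 times, 4 to 8 at 8 h, 12 to 15 at 24 h, 16 to 22 at 48 h, and 10 to 18 for untreated cells between 0 and 8 h, where the low end of 10 came without replicate 2 of either group. TFEB stayed between 0.74 and 1.15 and ULK1 between 0.85 and 1.14 on the log2 scale at 8, 24 and 48 h, and the GUSB ratio between 0.19 and 0.25. Average differences turned above 0 with HPRT1 and GAPDH as library size for NPC1 (0.180), NPC2 (0.251), CTSC (0.0692), GUSB (0.198), HEXA (0.0590), NEU1 (0.237), PSAP (0.274), ATP6V1A (0.0764), ATP6V1H (0.235), SQSTM1 (0.149), BECN1 (0.256) and ATG7 (0.280), each below the median of 0.297 that this scaling gave to all genes. The TFE3, GLA and GLB1 averages lost their call under 7, 7 and 5 of 13 settings.

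Same-numbered replicates correlated by -0.05 to 0.30 in their deviations from group means, with 4 of 12 pairs above 0.1, so a pairing was not shown throughout. At 0 and 24 h these correlations were 0.07 to 0.30, highest for replicate 2 (0.296 and 0.301), and at 8 and 48 h -0.05 to 0.09. At 0 and 24 h, replicate 2 of 1 arm against replicate 1 or 3 of the other gave -0.25 to -0.08. Replicate 1 against 3 gave 0.02 to 0.12 there. With the replicate block 24 members passed over the 3 times, 7 at 8 h, 15 at 24 h and 22 at 48 h, and the GUSB ratio had p = 0.00391 (exact test over sign exchanges, the smallest they can give).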
